A study of Mus musculus with 3 samples.

Results

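The interferon-inducible GTPases are large GTP-binding proteins that cells make after exposure to interferon. The 10 genes considered here are the guanylate-binding protein genes Gbp2, Gbp3, Gbp5, Gbp6 and Gbp7 and the immunity-related GTPase (IRG) genes Igtp, Iigp1, Irgm1, Irgm2 and Tgtp1. They were chosen by name, and a gene was read through every probe set that the array's annotation assigns to it alone. A probe set is a group of short oligonucleotides on the array that reads 1 transcript. This gave 11 probe sets for 8 of the 10 genes, 4 of each family, out of 17886 genes in all. Gbp5 and Tgtp1 had no such probe set and were not analysed here. Gbp2, Gbp7 and Iigp1 have 2 probe sets each, and the other 5 genes have 1.

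The cells were wild-type mouse dendritic cells (DCs). They had been raised from marrow in GM-CSF, a growth factor for myeloid cells, for 5 days and then separated in a cell sorter by surface PDL2, which binds the inhibitory receptor PD-1. The 3 groups were PDL2-negative untreated cells, PDL2-negative cells given 100 ng/ml of lipopolysaccharide (LPS), a bacterial cell wall component that Toll-like receptor 4 senses, and PDL2-positive untreated cells. The length of the LPS exposure and the number and age of the mice are not given in the sources used here. Each group had 1 array, so no difference has a replicate check, no p-value is given, and the number of arrays limits the precision.

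Guanylate-binding proteins assemble on the vacuoles that hold intracellular bacteria and parasites, and on bacteria that escape into the cytosol, and they help the LPS-sensing caspase-11 pathway to reach its ligand. The effector IRG proteins, such as the product of Iigp1, load onto pathogen vacuoles and break their membrane. The regulatory IRG proteins, products of Irgm1, Irgm2 and Igtp, sit on the cell's own membranes and hold the effectors inactive there. Transcription of both families is induced by interferon gamma, whose response element is called GAS, and by type I interferon, whose response element is called the ISRE. LPS induces type I interferon in DCs.

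The promoters of the members are shown first because the genes moved together after LPS. RefSeq promoter windows (build GRCm38.p6, 250 bases before to 50 after the annotated start) were found for 6 of the 8 measured genes, with 2 windows for Gbp3. Both strands were searched for the ISRE core, which is GAAA, any 2 bases and GAAA again, and for GAS, which is TTCNNNGAA and reads the same on both strands. Each line below runs 5′ to 3′ on the gene's strand from base -110 to base 10 around the annotated start, with matches in capitals.
Gbp2, chr3:142620553-142620672, + strand: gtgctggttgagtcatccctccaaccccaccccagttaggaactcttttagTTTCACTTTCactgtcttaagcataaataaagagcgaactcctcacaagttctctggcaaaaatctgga
Gbp3, chr3:142559934-142560053, + strand: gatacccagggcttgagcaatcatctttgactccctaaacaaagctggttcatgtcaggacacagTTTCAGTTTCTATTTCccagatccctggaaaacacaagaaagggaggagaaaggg
Gbp7, chr3:142530226-142530345, + strand: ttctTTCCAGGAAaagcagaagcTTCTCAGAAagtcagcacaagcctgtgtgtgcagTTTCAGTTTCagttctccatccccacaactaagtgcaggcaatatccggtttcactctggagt
Irgm1, chr11:48871411-48871530, - strand: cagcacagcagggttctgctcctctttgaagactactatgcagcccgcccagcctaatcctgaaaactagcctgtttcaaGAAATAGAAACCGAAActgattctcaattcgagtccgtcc
Irgm2, chr11:58214867-58214986, + strand: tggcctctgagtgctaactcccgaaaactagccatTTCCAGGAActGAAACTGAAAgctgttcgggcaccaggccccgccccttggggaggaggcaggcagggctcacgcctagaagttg
Igtp, chr11:58199446-58199565, + strand: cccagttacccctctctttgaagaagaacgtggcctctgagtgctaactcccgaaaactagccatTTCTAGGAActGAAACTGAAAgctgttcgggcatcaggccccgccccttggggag
In the Gbp2, Gbp3 and Gbp7 lines the capitals with TTTC at both ends are ISRE cores read on the opposite strand, and in Gbp3 and Irgm1 2 overlapping cores form 1 block.

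At least 1 ISRE core lay in the windows of all 6 genes, against 3.44% of 32851 promoter windows of the same length. The matches started between base -64 and base -24. A GAS match lay in 3 of the 6 genes, Gbp7, Irgm2 and Igtp, against 8.30% of all windows, and Gbp7 held 2 of them. The second window of Gbp3 held neither motif. Among genes compared here that have a window, 3.73% of 8735 held an ISRE core, and among those at least 2-fold higher after LPS 9.50% of 758 did. For GAS the same shares were 8.19% and 9.89%. A match is a description of the letters and no evidence of binding. The windows of Igtp and Irgm2, which are neighbours on chromosome 11, share a run of 61 identical bases, while the longest shared run in the other 14 pairs of these 6 genes was 7 to 13 bases. These 2 windows are therefore no independent examples of a motif.

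**Figure D1:**
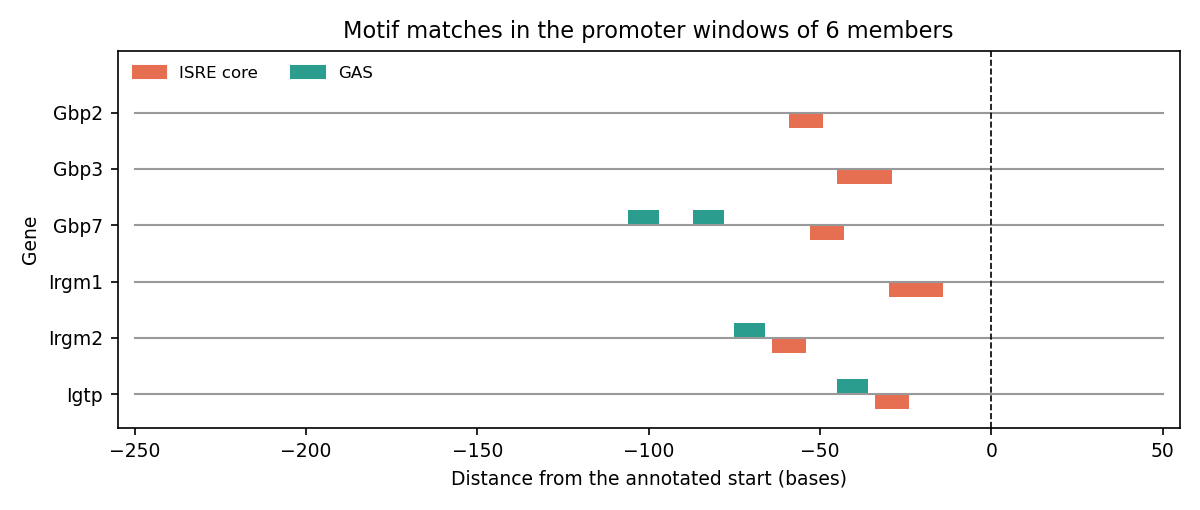
Positions of ISRE core matches (orange, below each line) and GAS matches (green, above) in the promoter windows of 6 measured members, in bases from the annotated start (dashed line). In all 6 genes an ISRE core starts between base -64 and base -24, and Gbp7, Irgm2 and Igtp also have GAS matches.

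All values that follow are normalized log2 signals or differences between them. A floor of 5.58, the median of all signals, was set because lower values have no meaningful order. Where 1 array lay below the floor, it was raised to it and the fold is given as at least that size, and where both did no fold is given. A gene with several probe sets is represented by the one with the highest mean signal, and a difference is counted from 2-fold up. Signals of different probe sets are on different scales, so only the 3 arrays of 1 probe set are compared.

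The arrays were comparable in their whole distribution, with deposited medians from 5.56 to 5.59. Signals of the DC genes H2-Ab1 and Cd74 were between 13.8 and 14.3 on every array, close to the upper end of the range. Other DC markers were far less bright, down to 7.08 for Zbtb46 in PDL2-negative untreated cells. The median of the 9 DC markers was 8.18 there, 7.50 after LPS and 10.39 in PDL2-positive cells. All 9 DC markers were above the floor in both PDL2-negative samples and 8 of 9 were in PDL2-positive cells. Compared with PDL2-negative untreated cells, 5 of the 9 were at least 2-fold higher in PDL2-positive cells and 2 were lower (median 1.89), with Ccr7 at 6.26, Irf4 at 3.38 and Cd209a at -4.87 or lower. After LPS 1 of the 9 was higher and 1 was lower (median -0.20). Macrophage markers were also high in the PDL2-negative samples, where all 8 measured were above the floor. In a mixed population, fewer cells of a type and less RNA per cell cannot be told apart. For T and natural killer cells, the classical producers of interferon gamma, 3 of 8 markers measured were above the floor (Cd3e, Cd4 and Cd8a), whereas Cd3d, Cd3g, Ncr1, Gzma and Eomes were below it on all 3 arrays. All 6 markers of plasmacytoid DCs, another DC type, were above the floor on every array, some of them only just. The lowest was at 5.81 untreated, 6.04 after LPS and 5.98 in PDL2-positive cells. After LPS 3 of these markers were higher and 0 lower (median 0.65). In PDL2-positive cells 2 of them were higher and 2 lower (median -0.28). Of 5 B cell markers measured, Ighm had signals of 10.84 untreated, 8.68 after LPS and 7.63 in PDL2-positive cells. Cd79a and Ms4a1 were below the floor on all 3 arrays, and Cd79b and Pax5 were near it, at 5.94 or less. Whether any of these cell types made interferon was not tested.

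After LPS the members were higher without exception among those measured, in a list chosen with earlier results of these data known. All 8 genes, and all 11 probe sets, were at least 2-fold higher in LPS-treated than in untreated PDL2-negative cells, against 9.17% of 11000 genes higher and 13.8% lower. Their median log2 difference was 3.30, against 0.02 over all genes, and it ran from 2.18 (Gbp7) to 5.58 (Iigp1). By size, Iigp1 ranked 21 and Gbp7 ranked 373 among the 11000 genes. The highest signal of every one of the 11 probe sets was on the LPS array. The shares of all probe sets that are highest there, or at least 2-fold higher after LPS, were not computed. The 11 are not separate, since Gbp2, Gbp7 and Iigp1 have 2 probe sets each.

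Among the guanylate-binding proteins, Gbp2, which restricts Toxoplasma at its vacuole, had signals of 10.40 untreated, 13.34 after LPS and 10.71 in PDL2-positive cells. It was 7.68-fold higher after LPS, and its second probe set (10.22, 13.55 and 10.54) gave 10.1-fold. The LPS array therefore stood apart for Gbp2, while the untreated arrays lay within 0.32 of each other on both probe sets. Gbp3, which lies in the same gene cluster on chromosome 3, had signals of 9.66, 12.37 and 9.05 in the same order and was 6.55-fold higher after LPS.

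Gbp7, another gene of that cluster whose product takes part in parasite and bacterial control, had the order of Gbp3 with a wider gap between the untreated arrays. Its signals were 9.64 untreated, 11.82 after LPS and 5.16 in PDL2-positive cells on 1 probe set, and 8.83, 11.31 and 5.06 on the other. All 3 arrays differed by more than 2-fold from each other, and both probe sets put PDL2-positive cells below the floor. Gbp7 was 4.54-fold higher after LPS, or 5.57-fold by the second probe set. Gbp6, which belongs to a separate cluster on chromosome 5, had signals of 5.49, 10.85 and 4.17, so only the LPS array was above the floor. It was at least 38.7-fold higher after LPS.

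**Figure D2:**
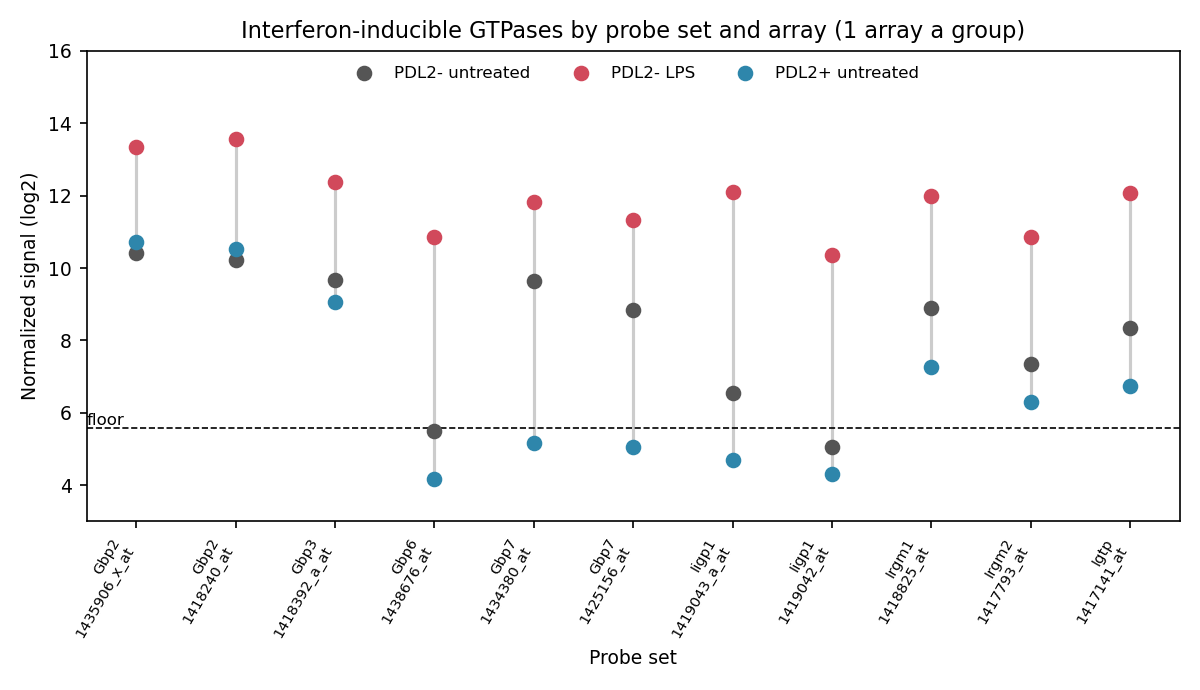
Normalized log2 signal (vertical axis) of each of the 11 probe sets of the 8 measured members (horizontal axis), with 1 point per array and a grey line spanning the 3 arrays; the dashed line is the floor of 5.58. The LPS array is highest throughout, while the gap between the untreated PDL2-negative and PDL2-positive arrays ranges from small in Gbp2 to large in Gbp7.

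The effector IRG gene Iigp1 had signals of 6.53 untreated, 12.11 after LPS and 4.70 in PDL2-positive cells. Its second probe set gave 5.07, 10.36 and 4.31, with only the LPS array above the floor. The increase after LPS was 47.7-fold by the first and at least 27.5-fold by the second. On the log2 scale these differences were 5.58 and at least 4.78, so on both probe sets the LPS array stood apart from the others.

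The 3 regulatory IRG genes had similar differences after LPS. Irgm1, whose loss in mice impairs resistance to intracellular bacteria, had signals of 8.89, 11.98 and 7.25 in untreated, LPS and PDL2-positive samples. Irgm2, whose product restrains caspase-11 responses, had signals of 7.34, 10.85 and 6.31. Igtp, also known as Irgm3, had signals of 8.35, 12.07 and 6.74. In each of these genes the order was the same, with LPS highest and PDL2-positive cells lowest. The increases after LPS were 8.51-fold for Irgm1, 11.4-fold for Irgm2 and 13.2-fold for Igtp.

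The only measure of error is the agreement of probe sets. Over 4212 genes with 2 probe sets above the floor, the LPS differences of the 2 sets differed with a robust SD of 0.41. The gaps for Gbp2 and Gbp7 were 0.39 and 0.29, below that SD and below the differences themselves. For Iigp1 the second probe set gives only a bound, so its gap was not set against that SD. This spread is technical and does not measure how cultures or animals vary. Gbp2 after LPS lay near the top of the scale, which ended at 14.75, and bright probe sets can compress differences there.

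PDL2-positive cells differed from PDL2-negative untreated cells gene by gene. Gbp6 was below the floor in both, which left 7 genes, of which 4 were at least 2-fold lower, 0 were higher and 3 differed by less. Over all genes, 13% of 10926 were lower and 10.1% higher. The members' median difference was -1.04, against 0.01 over all genes, and it ran from -4.06 to 0.30.

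Gbp7 was at least 16.7-fold lower in PDL2-positive cells, and at least 9.56-fold lower by its second probe set. Both are lower bounds, since its PDL2-positive signals lay below the floor. Irgm1 was 3.11-fold and Igtp 3.04-fold lower. Irgm2 was 2.05-fold lower, just past the size rule. With the floor at the 75th percentile of all signals, the difference of Igtp was -0.54 and Irgm2 was below the floor on both arrays, so neither counted as lower. Iigp1 was at least 1.94-fold lower, just short of it, and since its PDL2-positive signal lay below the floor this is a lower bound. With the deposited values left as they were, its difference was -1.02 and passed the rule. With its probe sets averaged the difference was -0.22, and with the higher floor Iigp1 was below it on both arrays. The second probe set of Iigp1 was below the main floor on both untreated arrays and gave no fold.

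Gbp2 and Gbp3 differed by less than 2-fold, with Gbp3 in the direction of the genes above. Gbp2 differed by 0.30 and by 0.32 on its 2 probe sets, slightly above the PDL2-negative level, and Gbp3 by -0.61. Gbp2, Gbp3 and Gbp7 lie in 1 cluster on chromosome 3, so the clustered genes gave differences from 0.30 to -4.06. The robust SD between probe sets in this comparison was 0.29 over 4243 genes. The differences of Gbp2 were thus close to the disagreement between probe sets, and those of Gbp3, Gbp7, Igtp, Irgm1 and Irgm2 were larger than it.

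Macrophage and monocyte markers moved in the same direction in this comparison. All 8 macrophage markers measured were at least 2-fold lower in PDL2-positive cells (median -4.81), and their summed linear signal was 52766 in PDL2-negative untreated, 39471 in LPS-treated and 2959 in PDL2-positive cells. Mrc1 was below the floor in PDL2-positive cells. All 5 monocyte markers measured were lower as well (median -3.41), with summed signals of 13552, 6756 and 948. Their part in the GTPase differences was not tested. After LPS the median of the macrophage markers was -0.47; the Fc receptor gene Fcgr1 alone of the 8 was higher, and 3 were lower. Markers of neutrophils and granulocyte precursors were lower after LPS in 7 of 9 and within 2-fold in all 9 in the PDL2 comparison.

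**Figure D3:**
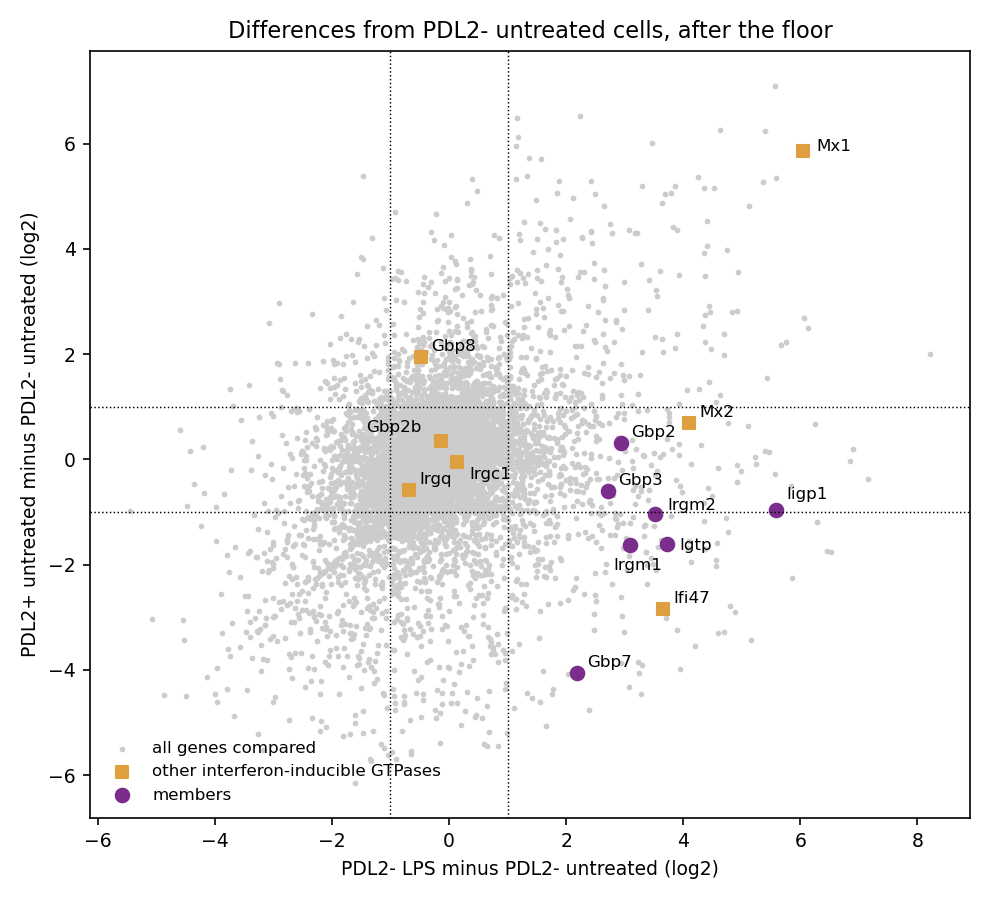
Log2 difference after LPS (horizontal axis) against that of PDL2-positive cells (vertical axis), both from the same PDL2-negative untreated array, for all genes compared (grey), 7 members (purple) and 7 other genes of the family (orange squares); dotted lines mark 2-fold. The members lie between 2.18 and 5.58 horizontally and spread from 0.30 down to -4.06 vertically; Gbp6 is not drawn because it was below the floor on both untreated arrays.

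Set directly against LPS-treated PDL2-negative cells, untreated PDL2-positive cells had lower signals for all 8 members. The background was 12.6% of 11042 genes lower and 15.6% higher. The median was -5.00, against -0.05 over all genes. The differences ran from -2.64 for Gbp2 to at least 92.6-fold lower for Iigp1. This comparison uses the same LPS array as the first and the same PDL2-positive array as the second, so it is no separate evidence.

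Of 20 further GTPase genes listed, 7 had values here, and 3 of them, Ifi47, Mx1 and Mx2, were at least 2-fold higher after LPS. Ifi47, an IRG gene also called Irgd, had signals of 10.44, 14.10 and 7.58 in untreated, LPS and PDL2-positive samples, the order seen for Irgm1, Irgm2 and Igtp. It was 12.6-fold higher after LPS and 7.23-fold lower in PDL2-positive cells. Gbp2b, which lies in the chromosome 3 cluster beside Gbp2, had signals of 6.57, 6.44 and 6.92. It stayed within 2-fold in every comparison, although its promoter window also holds an ISRE core, from base -137 to base -128. The window of Ifi47 held neither motif in this stretch.

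Gbp8 had signals of 6.89, 6.40 and 8.83, so it was 3.84-fold higher in PDL2-positive cells and was within 2-fold after LPS. Irgc1 and Irgq, IRG relatives that are not known to respond to interferon, differed by 0.14 and -0.69 after LPS. The dynamin-like antiviral GTPases Mx1 and Mx2 were 66.4-fold and 17.1-fold higher after LPS. In PDL2-positive cells Mx2 was within 2-fold (0.68), whereas Mx1 was 5.86 log2 units higher (6.96, 13.02 and 12.83 on the 3 arrays).

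The interferons themselves were barely detected. Of 6 interferon genes, Ifna1 alone was above the floor, with signals of 5.78, 6.29 and 5.62. Ifng was at 3.95, 3.93 and 3.95 and Ifnb1 at 4.66, 5.26 and 4.75, all below it. A signal below the floor does not show that a transcript was absent, and the time after LPS is not known.

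Of 15 interferon receptor and signal transducer genes, 8 were at least 2-fold higher and 1 was lower after LPS (median 1.12). Usp18 and Socs1, feedback inhibitors of interferon signalling, were higher by 4.70 and 4.63, and Ifngr1, a chain of the interferon gamma receptor, differed by -2.17. Stat2 (6.70, 10.20 and 6.82) was 11.3-fold higher after LPS and differed by 0.12 in PDL2-positive cells. In that comparison 6 of the 15 were higher and 1 lower (median 0.50), with Jak2 at 3.03 and Ifngr1 at -2.40. Irf1, a factor that binds the ISRE, was higher in both, by 2.62 and 1.45. Usp18 was higher there by 1.98. Any link between these genes and the differences of the members was not tested.

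Genes known as type I interferon targets and as interferon gamma targets were compared in the same way. All 12 type I targets measured were at least 2-fold higher after LPS (median 4.25), while in PDL2-positive cells 9 were lower and 0 higher (median -1.89). Of the interferon gamma targets, 9 of 11 were higher after LPS (median 2.15). In PDL2-positive cells 4 of 9 were higher and 2 lower (median 1.00), with Nlrc5 at 2.04 and Fcgr1 at -5.06. Cd274 at 1.002 just passed the size rule and Psmb8 at 0.999 just missed it. Genes below the floor on both arrays were left out, Tap1 in both comparisons and Cxcl9 and Nos2 in the second. Fcgr1 is also among the macrophage markers. The members' medians were 3.30 and -1.04, and whether either interferon accounts for them was not tested. These lists are small and the difference between them was not tested.

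Partners of the GTPases came next. Of 15 genes that mark or load vacuoles, 4 were higher after LPS and 1 was lower (median -0.22). Rnf213, a ubiquitin ligase that marks bacterial LPS, and Trim21, an antibody receptor and ubiquitin ligase, were higher by 3.10 and 2.96. The ubiquitin receptor genes Sqstm1 and Tax1bp1 were higher by 1.61 and 1.01. The autophagy conjugation genes needed for correct placing of the GTPases were not among those higher by 2-fold: Atg5 differed by -0.91, Atg3 by -0.59, Atg7 by -1.27, Atg12 by -0.32 and Atg16l1 by 0.81. In PDL2-positive cells 1 of these 15 genes was higher and 3 were lower (median 0.15), with Traf6 at 2.07 and Atg7 at -1.44.

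Among inflammasome genes that act after vacuoles or bacteria are opened, 5 of 8 were higher after LPS and 1 was lower (median 1.35). Casp4, which encodes caspase-11, had signals of 8.25, 12.01 and 9.05 and was higher by 3.76. Il1b was higher by 4.08, and Pycard, the inflammasome adaptor gene, differed by -1.03. In PDL2-positive cells 4 of 8 were lower and 0 higher (median -0.83), with Nlrp3 at -1.89 and Casp4 at 0.80.

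**Figure D4:**
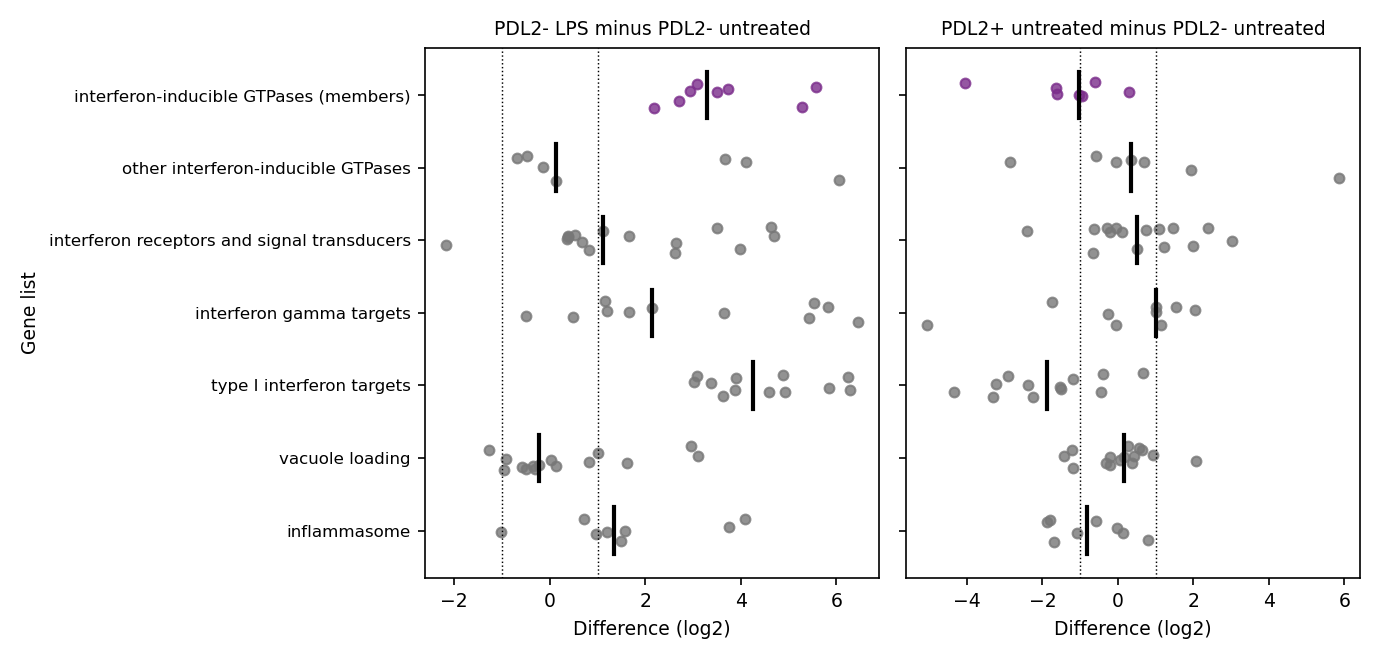
Log2 differences of single genes (points, jittered vertically) by gene list, after LPS (left) and in PDL2-positive cells (right); black bars are medians and dotted lines mark 2-fold. The members (purple) have a median of 3.30 on the left and -1.04 on the right, beside 4.25 and -1.89 for the type I interferon targets and 2.15 and 1.00 for the interferon gamma targets.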

How the data were processed

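RNA from the 3 samples was hybridized to Affymetrix mouse arrays. The values deposited by the authors are on a log2 scale, judged from their range, with 1 value for each probe set on each array; their background correction, normalization and summary are not given in the sources used here. After 13 control probe sets were left out, 38533 were quantile-normalized (Python 3.11.15, pandas 2.3.3). Of these, 33974 name 1 gene in the probe annotation, whose symbols were updated through a RefSeq gene table (assembly GRCm38.p6); 449 probe sets that name several genes and 4110 unnamed ones stand for no gene. The calculation was checked on simulated data.

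Comparisons left out genes whose signal was below the floor on both arrays. The members, gene lists and size rule were chosen with earlier results of these data known. All members were named; in other lists, genes were named by largest and smallest difference or by their role. Alternatives were other scalings, floors, fold limits and choices of probe set. Suffixes such as _x_at mark probe sets that can also read related genes, which matters for Gbp2, so its signal may include close relatives.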

Additional observations from a re-analysis of the deposited data

How the results depend on the processing

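No paired analysis was possible because each group has 1 array. No named direction among the members past 2-fold turned under any alternative run, and for single genes 98 of 121 values under another scaling, floor or choice of probe set moved by less than the probe set SD. Part of these 98 could not move. Averaging leaves a gene with 1 probe set as it was, and removing the floor leaves a gene above it on both arrays as it was. After LPS, the count of members higher was 8 under the other scalings, floors and fold limits and with averaged probe sets. With the second brightest probe set it was 3 of the 3 genes that have one; the count lower in PDL2-positive against LPS-treated cells was then also 3 of 3. In PDL2-positive against PDL2-negative untreated cells 4 of 7 genes were lower. The count was 5 of 7 with deposited or centred values, 6 of 7 at 1.5-fold, 3 of 7 at 3-fold and 4 of 7 with averaged probe sets. Without a floor the median was -1.46 and 6 of 8 were lower; a floor of 7.80, the 75th percentile, gave -0.61 and 2 of 5. With the second brightest probe set the median was -1.47 and 1 of 2 genes was lower. Against LPS-treated cells the higher floor gave -3.67. Leaving signals as deposited shifted the median LPS difference from 0.03 to -0.08, over all genes with both arrays above the floor.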

Other observations

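A search made after the promoters had been seen concerned the layout of the motifs in Igtp and Irgm2, where a GAS match is followed after 2 bases by an ISRE core. This arrangement, searched on both strands, was found in 5 of 32851 RefSeq promoter windows, or 0.0152%. The 5 genes were Igtp, Irgm2, Tgtp1, Tgtp2 and Gm12185. Of these, Igtp and Irgm2 were 3.72 and 3.51 log2 units higher after LPS and differed by -1.60 and -1.04 in PDL2-positive cells. Gm12185 had signals of 4.90 untreated, 5.61 after LPS and 5.22 in PDL2-positive cells, so the LPS array alone was just above the floor of 5.58, and Tgtp1 and Tgtp2 were not analysed here. Related genes can share such letters by descent, so the 5 windows are not independent.

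The 5 genes outside the members whose log2 differences were nearest to the members' median point (3.09 after LPS and -1.04 in PDL2-positive cells, over the 7 members compared in both) were Cst7, Rffl, Rnf213, Itga5 and Slfn5, out of 10696 genes compared in both. Likeness was the Euclidean distance over these 2 differences, which share the PDL2-negative untreated array. Cst7, which encodes the protease inhibitor cystatin F, differed by 3.14 and by -1.09 or less; its PDL2-positive signal of 5.26 was below the floor, so the second value is a bound and its distance rests on the floor. Slfn5, a Schlafen gene measured above the floor on all 3 arrays, was at a distance of 0.207 with 2.97 and -1.21.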
